A study of Homo sapiens with 12 samples.

Results

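Expression in HCC70 and MDA-MB-231, established human cell lines from triple-negative breast cancers, was compared after both had been exposed to the BET inhibitor JQ1 (500 nM for 72 hours). The comparison rests on 6 of the 12 arrays of the study, 3 of each line, and the 6 arrays of the same lines kept in vehicle (0.1% DMSO) for the same time served as the background. All 12 arrays were Affymetrix whole-transcript gene arrays hybridised with 150 ng of RNA per sample. No genetic change, transgene or second agent is given for any group, so the 4 groups are HCC70 with JQ1, MDA-MB-231 with JQ1, HCC70 with vehicle and MDA-MB-231 with vehicle. Each line is a single established line, so a line difference contrasts these lines and no wider class of tumour. Nothing in the labels ties the arrays of a group to separate cultures, and a p-value here speaks only to the spread among these arrays, which may be technical. In bulk RNA, fewer cells of a kind and less RNA per cell cannot be told apart.

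BET proteins (BRD2, BRD3 and relatives) read acetylated histones at active promoters and enhancers and recruit the elongation factor P-TEFb. JQ1 fills their acetyl-lysine pockets and releases them from chromatin. Epithelial cells are held together by tight junctions and desmosomes and express grainyhead factors and the splicing factor ESRP1. Cells with a mesenchymal programme express ZEB1, vimentin and fibronectin instead. HCC70 is usually described as basal-like and epithelial, and MDA-MB-231 as mesenchymal, so the comparison asks which of these identity differences were still present under BET inhibition, which were smaller and which were new.

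The values are log2 signals, and every line difference is HCC70 minus MDA-MB-231, so that positive values are higher in HCC70 and 1 unit is a doubling. Of 53617 transcript clusters, 16098 had 1 gene symbol, and the brightest cluster of each gene left 14884 genes. Differences are given with the standard error (SE) of the limma fit and group means with the standard deviation (SD) of 3 arrays. A gene was called where the adjusted p was under 0.05. Array medians lay between 6.16 and 6.26. Arrays of a group correlated at r = 0.989 to 0.995 across genes, and JQ1 arrays of different lines at 0.894 to 0.9. A level under about 4.8, the lower quartile of genes, lies near the dim end of the array, and a difference that ends there is read as a lower bound.

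The labels were checked against the markers of each cell type. Of 8 epithelial markers 7 were measured, and 0 of them lay under the lower quartile in JQ1-treated HCC70, against 2 (ESRP1 and GRHL2) in JQ1-treated MDA-MB-231. Of the 4 mesenchymal markers measured (VIM, ZEB1, AXL and FN1), 0 lay under it in JQ1-treated MDA-MB-231 and 1 (ZEB1) in JQ1-treated HCC70. Of the 2 basal epithelial markers measured (KRT5 and KRT14), 0 lay under it in JQ1-treated HCC70 and 2 in JQ1-treated MDA-MB-231. CDH1, the E-cadherin gene, and the integrins were not analysed here. Of the 4 luminal markers measured, ESR1 (difference 0.08 ± 0.16, adjusted p = 0.75) and PGR (0.02 ± 0.11, adjusted p = 0.92) were not called between the JQ1-treated lines. FOXA1 (2.36 ± 0.12) and GATA3 (1.95 ± 0.15) were higher in HCC70. Of 4 blood markers measured, 0 lay under the lower quartile in either JQ1-treated line, so this check did not show them to be low. CD14 was higher in HCC70 (2.15 ± 0.096) and CD68 higher in MDA-MB-231 (-0.67 ± 0.074). Of 6 stromal and endothelial markers measured, 3 lay under the lower quartile in JQ1-treated HCC70 and 2 in JQ1-treated MDA-MB-231, and KDR alone was called (-0.26 ± 0.098).

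Under JQ1, 6894 of 14884 genes (46.3%) differed between the lines, 3645 (24.5%) higher in HCC70 and 3249 (21.8%) higher in MDA-MB-231. Quantile normalization turned that split, to 3398 higher in HCC70 and 3630 higher in MDA-MB-231. In vehicle the count was 7000 (47%), with 3540 (23.8%) higher in HCC70 and 3460 (23.2%) higher in MDA-MB-231. The 3 JQ1 arrays of one line lay wholly apart from the 3 of the other for 7772 genes. The line difference itself changed under JQ1 for 2228 genes (15%), 1342 (9.02%) toward HCC70 and 886 (5.95%) toward MDA-MB-231, or 1246 and 1116 after quantile normalization. Most of what set the lines apart in vehicle was also called under JQ1: 5279 genes were called in both treatments with the same sign, 75.4% of the vehicle calls and 76.6% of the JQ1 calls. Across the 14884 genes the line differences in the separate vehicle and JQ1 arrays correlated at r = 0.87, a description over genes that are not independent replicates. Differences of at least 1 log2 unit were called for 2205 genes in vehicle and 2285 under JQ1, and 1562 genes passed that size in both with the same sign.

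The 3 calls sort the genes into classes. A difference persisted for 4142 genes (27.8%), called in both treatments with the same sign and with no called change, which does not show that it was equal. It narrowed for 552 genes (3.71%) but was still called, and was lost for 466 (3.13%). It widened for 585 genes (3.93%), appeared for 447 (3%) that were not called in vehicle, and reversed for 166 (1.12%). These shares are the background for every count below. Counts of genes that rose or fell within a line depend on the scaling: 1366 rose and 1863 fell in HCC70 (9.18% and 12.5%), and 1607 rose and 2532 fell in MDA-MB-231 (10.8% and 17%), against 1925 and 1505, and 2185 and 2091, after centring on array medians.

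**Figure D1:**
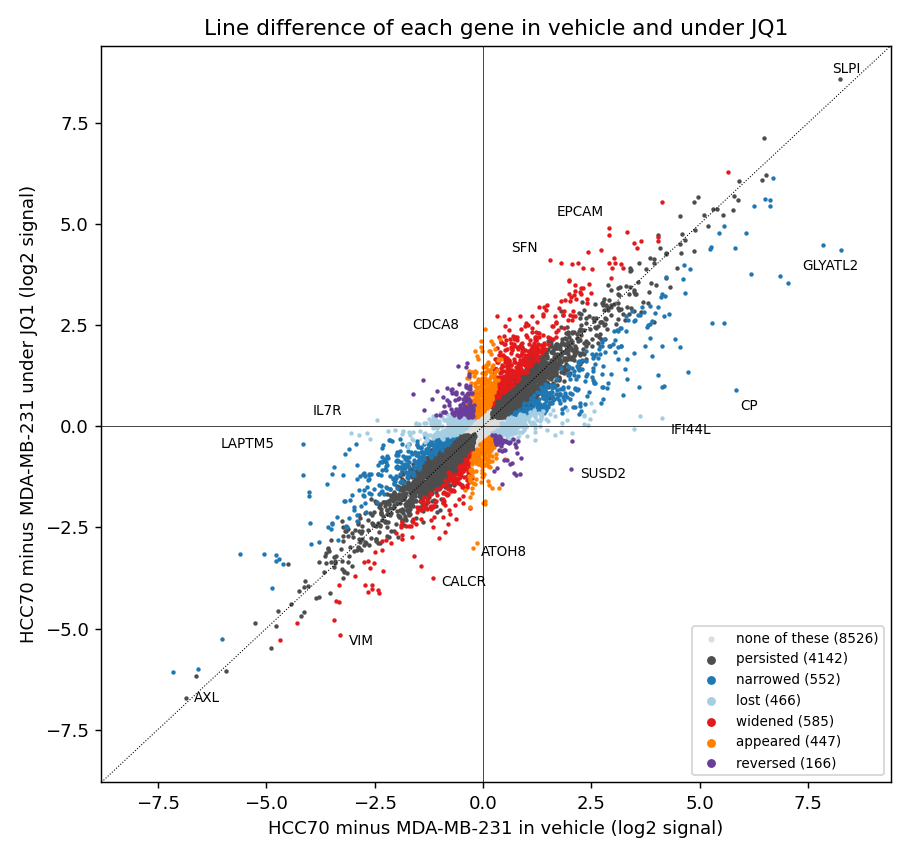
Each point is 1 of 14884 genes, with the line difference (HCC70 minus MDA-MB-231, log2 signal) in vehicle on the horizontal axis and under JQ1 on the vertical axis; colours give the class and the dotted line marks equal differences. Most called genes lie along the dotted line, with SLPI and AXL at its ends, while CP and IFI44L lie near 0 on the vertical axis and CALCR and ATOH8 far below the line.

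**Figure D2:**
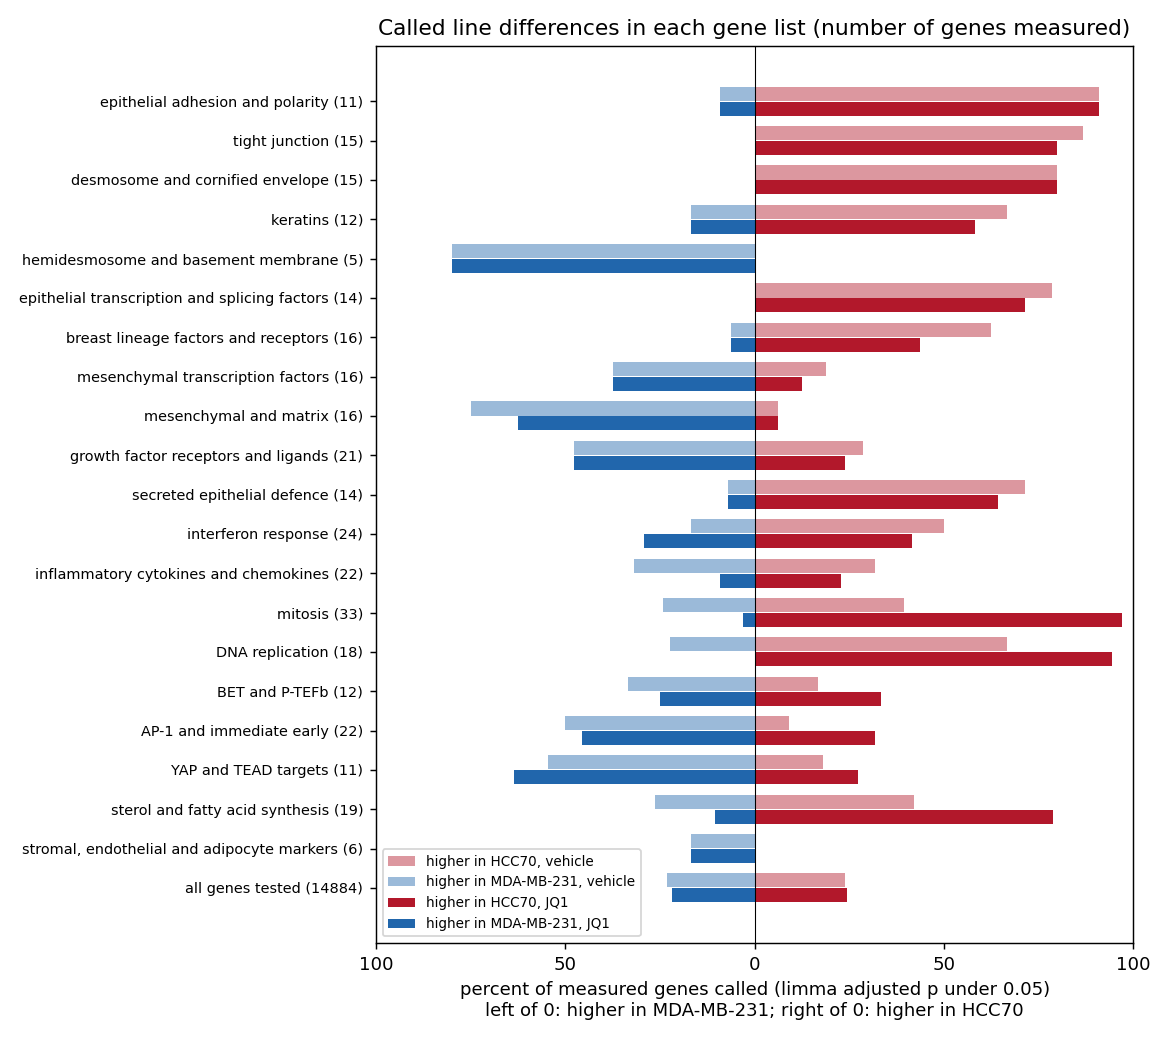
Bars give the percent of each list's measured genes called higher in HCC70 (right) or in MDA-MB-231 (left), pale for vehicle and full colour for JQ1; the lowest pair is all 14884 genes tested. The epithelial lists lie to the right in both treatments, while mitosis moves from 13 higher and 8 lower of 33 genes to 32 higher and 1 lower.

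Junction genes were higher in HCC70 with and without JQ1. Of 11 measured genes of epithelial adhesion and polarity, 10 were higher in JQ1-treated HCC70 and 1 lower (median difference 2.84, against 0.013 over all genes), and the same counts held in vehicle (median 1.83). Of 15 tight junction genes, 12 were higher in HCC70 under JQ1 and 0 lower (median 2.40), against 13 and 0 in vehicle (median 2.03). CLDN1, a barrier claudin, read 9.89, 9.96 and 9.83 on the HCC70 JQ1 arrays and 4.26, 5.28 and 4.57 on the MDA-MB-231 JQ1 arrays. These groups lay far apart, with a difference of 5.19 ± 0.20 (adjusted p = 3.0e-10). The MDA-MB-231 mean lay under the lower quartile, so 5.19 is a lower bound. OCLN, the gene of occludin, differed by 3.44 ± 0.13 under JQ1 and 3.16 ± 0.13 in vehicle, and CLDN3 by 1.35 ± 0.095 and 1.68 ± 0.095. The exception among the adhesion and polarity genes was the polarity adaptor PARD6B, higher in MDA-MB-231 in both treatments (-2.08 ± 0.10 under JQ1 and -1.74 ± 0.10 in vehicle).

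EPCAM, the epithelial cell adhesion molecule, showed a difference that widened. It read 10.62, 10.63 and 10.47 in JQ1-treated HCC70, against 10.22, 10.46 and 10.25 in vehicle. In MDA-MB-231 it read 5.76, 5.87 and 5.39 with JQ1 and 7.29, 7.53 and 7.41 with vehicle. HCC70 thus stayed high while MDA-MB-231 fell by 1.74 ± 0.12, and the line difference went from 2.90 ± 0.12 to 4.90 ± 0.12 (change 2.00 ± 0.18, adjusted p = 9.9e-06). CLDN7 and LSR, another claudin and the lipolysis-stimulated receptor of tricellular junctions, followed the same course. CLDN7 differed by 3.49 ± 0.19 in vehicle and 4.54 ± 0.19 under JQ1, and LSR by 1.99 ± 0.075 and 3.26 ± 0.075. The MDA-MB-231 JQ1 arrays of CLDN7 read 6.06, 6.07 and 6.98, so the third stood above the others, and the change was not called after quantile normalization (0.93). MPZL3, an immunoglobulin-family adhesion protein, also widened (1.49 ± 0.13 to 3.01 ± 0.13). SFN, the epithelial 14-3-3 sigma protein, showed the largest widening toward HCC70, from 1.55 ± 0.11 to 4.11 ± 0.11, with HCC70 at 11.75 ± 0.075 and MDA-MB-231 falling from 9.93 ± 0.10 to 7.65 ± 0.20.

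Desmosomes are the rivets between epithelial cells. Of 15 desmosome and cornified envelope genes, 12 were higher in HCC70 and 0 lower in each treatment, not all of them the same genes: 6 persisted, 5 narrowed and 1 (PKP2) was lost. The median difference was 1.22 under JQ1 against 1.79 in vehicle, and the difference changed downward for 6 genes and upward for 0. Without every array numbered 3, which leaves 2 per group, the difference changed for 2 of them. The desmosomal cadherin DSG3 read 7.97, 8.15 and 8.10 in vehicle-treated HCC70 and 6.63, 6.6 and 6.05 with JQ1. MDA-MB-231 stayed at 4.23 ± 0.14 and 4.24 ± 0.10, below the lower quartile, so the difference narrowed from at least 3.84 to at least 2.19 (change -1.65 ± 0.20). PKP1, a plakophilin, narrowed from 3.04 ± 0.15 to 2.12 ± 0.15, a change not called without every array numbered 3 (-0.97). DSC2 had one of the 10 largest differences toward HCC70 under JQ1, reading 10.62, 10.57 and 10.51 in HCC70 against 4.60, 4.20 and 4.53 in MDA-MB-231. Its narrowing from 6.68 ± 0.12 to 6.12 ± 0.12 just passed the threshold (adjusted p = 0.048) and was not called after centring on array medians (-0.56) or when any of 9 arrays was left out (-0.43 to -0.59). MDA-MB-231 lay under the lower quartile in both treatments, so both DSC2 differences are lower bounds. The widely expressed members DSG2 (1.91 ± 0.075), DSP, the desmoplakin gene (0.99 ± 0.077) and PPL, periplakin (1.79 ± 0.10), persisted, at 1.79 ± 0.075, 1.22 ± 0.077 and 1.96 ± 0.10 in vehicle.

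The stretches just before the start sites of OCLN and DSC2 are shown because both genes stayed higher in HCC70 under JQ1 and hold CAGGTG, an E-box that ZEB and SNAI repressors are known to bind. They are from RefSeq (GRCh38.p14), 5′ to 3′ on the gene's strand, bases -180 to -1 before the first listed start. Capitals mark CAGGTG on either strand.
OCLN (chr5:69492367-69492546, plus strand): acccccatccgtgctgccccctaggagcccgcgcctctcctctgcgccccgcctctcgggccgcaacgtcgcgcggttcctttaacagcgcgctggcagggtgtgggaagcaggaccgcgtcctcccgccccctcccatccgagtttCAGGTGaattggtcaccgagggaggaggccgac
DSC2 (chr18:31102422-31102601, minus strand): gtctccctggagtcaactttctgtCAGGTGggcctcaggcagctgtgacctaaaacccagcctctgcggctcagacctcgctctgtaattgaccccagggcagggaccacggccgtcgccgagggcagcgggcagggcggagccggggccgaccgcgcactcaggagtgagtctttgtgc
In the 250 bases before the start, CAGGTG or its complement was present for 11 of 28 adhesion, tight junction and desmosome genes with a listed promoter (39.3%), against 16.9% of 10749 genes tested that had one. A match is a run of letters and not a shown binding site.

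Of 5 hemidesmosome and basement membrane genes measured (DST, PLEC, CD151, NID1 and HSPG2), 0 were higher in HCC70 and 4 lower under JQ1 (median -0.68). The laminins of this list were not analysed here.

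Keratins, the intermediate filaments of epithelia, took several courses. KRT5, a basal keratin, was higher in HCC70 by 4.16 ± 0.39 under JQ1 and 3.86 ± 0.39 in vehicle. The JQ1 arrays had a wide spread (8.79, 8.43 and 8.03 in HCC70 and 4.49, 3.85 and 4.43 in MDA-MB-231). MDA-MB-231 lay under the lower quartile in both treatments, so both KRT5 differences are lower bounds. KRT19 also persisted (1.65 ± 0.078 and 1.74 ± 0.078), as did KRT16 (2.66 ± 0.24 and 3.11 ± 0.24). KRT14, the other basal epithelial marker measured, had a mean of 6.455 in vehicle-treated HCC70 and 5.429 with JQ1. In MDA-MB-231 its means were 4.711 and 4.667, under the lower quartile. KRT4 and KRT15 narrowed, KRT4 from 3.91 ± 0.23 to 1.74 ± 0.23, and the change of KRT15 (-0.65 ± 0.20, adjusted p = 0.05) was lost after centring (-0.64). The simple keratins KRT8 (-0.17 ± 0.11, adjusted p = 0.24) and KRT18 (-0.02 ± 0.091, adjusted p = 0.88) were not called between the JQ1-treated lines. KRT7 reversed, from 0.80 ± 0.093 in vehicle to -0.37 ± 0.093 under JQ1, as it rose by 1.37 ± 0.093 in MDA-MB-231, whose JQ1 arrays (9.01, 8.91 and 8.75) all lay above those of HCC70 (8.53, 8.53 and 8.49). Over the 12 keratins measured, 7 were higher in HCC70 and 2 lower under JQ1, against 8 and 2 in vehicle, and the difference changed for 5, or 3 without every array numbered 3. By class, 4 persisted, 4 narrowed and 1 reversed.

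Among the transcription and splicing factors that run the epithelial programme, 10 of 14 were higher in JQ1-treated HCC70 and 0 lower (median 1.0, against 11, 0 and 1.5 in vehicle). ESRP1, which sets epithelial exon choice, read 10.78, 10.72 and 10.80 in HCC70 and 4.56, 4.44 and 4.68 in MDA-MB-231 under JQ1. GRHL2, a grainyhead factor that maintains epithelial genes, read 9.85, 9.76 and 9.67 and 4.86, 4.62 and 4.96. No array of one line came near the other, and since MDA-MB-231 is close to or below the lower quartile for both, the differences of 6.21 ± 0.11 and 4.95 ± 0.10 are lower bounds. In vehicle they were 6.52 ± 0.11 and 5.18 ± 0.10. GRHL1 (3.43 ± 0.13) and OVOL1 (1.74 ± 0.16) persisted too. TFAP2C widened from 2.32 ± 0.093 to 3.91 ± 0.093, rising in HCC70 (0.56 ± 0.093) and falling in MDA-MB-231 (-1.03 ± 0.093). EHF and KLF5 narrowed, EHF from 1.36 ± 0.084 to 0.48 ± 0.084 as it fell in HCC70, and KLF5 from 1.60 ± 0.10 to 0.85 ± 0.10 as it rose in MDA-MB-231, a change not called without every array numbered 3 (-0.62).

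Of 16 breast lineage factors and receptors, 7 were higher in JQ1-treated HCC70 and 1 lower, against 10 and 1 in vehicle. FOXA1, a luminal pioneer factor, narrowed from 3.11 ± 0.12 to 2.36 ± 0.12. GATA3, a luminal master regulator, went the other way, from 1.19 ± 0.15 to 1.95 ± 0.15, a change (adjusted p = 0.028) that was not called when any of 8 arrays was left out (0.75 to 0.77). KIT, the stem cell factor receptor of luminal progenitors, fell steeply: it read 9.43, 9.48 and 9.41 in vehicle-treated HCC70, 5.86, 6.76 and 6.0 with JQ1, and 4.78, 5.03 and 4.83 in JQ1-treated MDA-MB-231. Its difference narrowed from 4.73 ± 0.20 to 1.33 ± 0.20. PROM1 (CD133) stayed well apart at 4.39 ± 0.16, and MYB at 1.78 ± 0.10. ELF5 (-0.01 ± 0.14) and SOX10 (0.24 ± 0.11) were not called under JQ1.

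**Figure D3:**
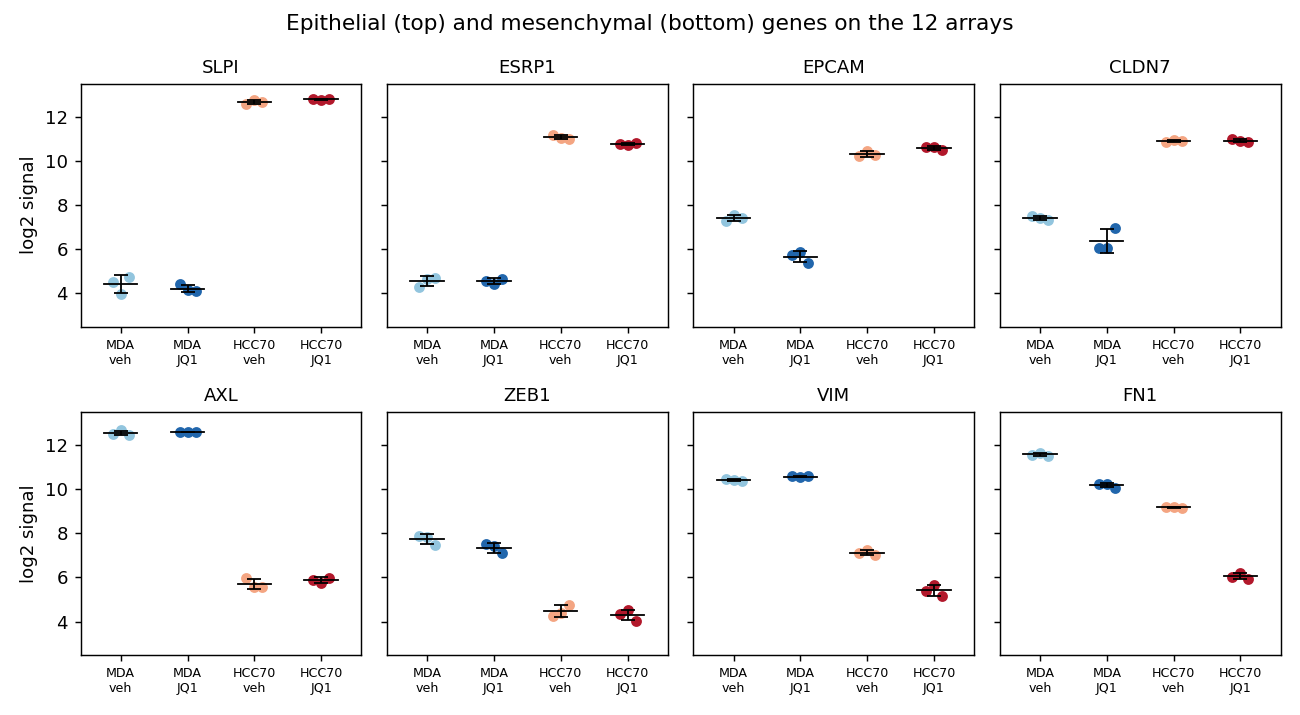
Points are the log2 signals of the 3 arrays of each group (MDA-MB-231 and HCC70, vehicle and JQ1), with bars at the mean and SD, for 4 epithelial genes (top) and 4 mesenchymal genes (bottom). SLPI, ESRP1, AXL and ZEB1 keep their gap, EPCAM and CLDN7 drop in MDA-MB-231 only, VIM drops in HCC70 and FN1 drops in both lines.

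The mesenchymal side of the contrast was led by AXL, the receptor tyrosine kinase for GAS6. It read 12.58, 12.60 and 12.57 in JQ1-treated MDA-MB-231 and 5.90, 5.73 and 5.99 in JQ1-treated HCC70, the most negative difference of all genes called (-6.71 ± 0.11, a 105-fold difference on the linear scale). In vehicle the difference was -6.86 ± 0.11, and JQ1 moved AXL in neither line past the threshold (0.18 ± 0.11 in HCC70 and 0.03 ± 0.11 in MDA-MB-231). ZEB1, the repressor of epithelial genes, read 7.5, 7.41 and 7.09 in MDA-MB-231 and 4.36, 4.52 and 4.04 in HCC70. Its difference of -3.03 ± 0.17 is a lower bound in size, since HCC70 lies under the lower quartile, and was -3.27 ± 0.17 in vehicle. SNAI2 (Slug) widened from -2.33 ± 0.076 to -3.07 ± 0.076 as it fell by 0.78 ± 0.076 in HCC70. SNAI1 (Snail) ran against its family and was higher in HCC70 (0.96 ± 0.12). RUNX2 and FOXF2 narrowed, to -1.64 ± 0.10 and -1.30 ± 0.16, with most of the fall in MDA-MB-231. Of 16 mesenchymal transcription factors, 6 were higher in MDA-MB-231 and 2 lower under JQ1, against 6 and 3 in vehicle. The median difference was 0.029 under JQ1 and 0.064 in vehicle, near the 0.013 and 0.033 over all genes, so the list as a whole did not lean to MDA-MB-231.

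Vimentin and fibronectin, the classical mesenchymal filament and matrix proteins, separated the lines further under JQ1. VIM read 7.12, 7.24 and 7.02 in vehicle-treated HCC70 and 5.40, 5.66 and 5.18 with JQ1, while MDA-MB-231 read 10.47, 10.41 and 10.38 and 10.58, 10.55 and 10.58. All of the called movement was in HCC70, and the difference went from -3.29 ± 0.11 to -5.15 ± 0.11 (change -1.87 ± 0.16, adjusted p = 6.9e-06). The 3 clusters named VIM all gave it (JQ1 differences -5.15, -4.35 and -5.37). FN1 fell in both lines, by more in HCC70: from 9.18 ± 0.038 to 6.06 ± 0.14, against 11.58 ± 0.063 to 10.18 ± 0.097 in MDA-MB-231. Its difference went from -2.40 ± 0.091 to -4.12 ± 0.091. FBN1 (fibrillin) and HSPG2 (perlecan) widened as MDA-MB-231 rose, to differences of -4.10 ± 0.091 and -3.58 ± 0.077. For FBN1, HCC70 lay under the lower quartile, so its difference is a lower bound in size. THBS1, LOX and TNC, a thrombospondin, a collagen crosslinker and tenascin C, narrowed. THBS1 moved from -4.00 ± 0.076 to -2.40 ± 0.076 and LOX from -2.33 ± 0.18 to -1.07 ± 0.18. TNC was the matrix gene higher in HCC70: it read 9.74, 9.90 and 9.87 there in vehicle and 6.73, 6.68 and 6.90 with JQ1, and its difference narrowed from 3.23 ± 0.11 to 0.77 ± 0.11. Over 16 mesenchymal and matrix genes, 10 were higher in JQ1-treated MDA-MB-231 and 1 in HCC70 (median -1.52), against 12 and 1 in vehicle (median -1.56).

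The genes with the largest differences under JQ1 were for the most part those of the vehicle contrast. SLPI, a secreted protease inhibitor, stood first with 12.83, 12.77 and 12.79 in HCC70 and 4.40, 4.14 and 4.12 in MDA-MB-231, a difference of at least 8.58. After it came NETO2, a glutamate receptor auxiliary subunit (7.13 ± 0.15), SYCP2, a meiotic chromosome protein (6.29 ± 0.14), ESRP1, DSC2, TDRD1, a germline tudor protein (6.08 ± 0.19), and CD24, a surface glycoprotein (6.05 ± 0.17). STEAP4, a metalloreductase (5.70 ± 0.10), MIR31HG, a long non-coding RNA (5.67 ± 0.16), and PTGFRN (5.61 ± 0.14) completed the 10. On the MDA-MB-231 side AXL was followed by EDIL3, a secreted integrin ligand (-6.19 ± 0.18), ENPP1, an ectonucleotidase (-6.08 ± 0.11), ANKRD1, a YAP target (-6.05 ± 0.092), and IGFBP7, an insulin-like growth factor binding protein (-6.01 ± 0.12). For EDIL3 and ENPP1, HCC70 lay under the lower quartile, so their differences are lower bounds in size. RPL23AP32 (-5.48 ± 0.16) is a ribosomal pseudogene whose signal can come from related copies. AASS, of lysine breakdown (-5.29 ± 0.11), EMP3, a membrane protein (-5.26 ± 0.081), VIM and MIR221 completed that side. All 20 genes were also called in vehicle with the same sign.

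MIR221 and its neighbour MIR222 on chromosome X were both much higher in MDA-MB-231 and persisted. The arrays measure the precursor transcript, not the mature microRNA. The mature 3p sequences (RefSeq, GRCh38.p14) are shown because the pair share a seed, bases 2 to 8, here in capitals, while a second pair of neighbours on chromosome 9 widened under JQ1.
miR-221-3p (chrX:45746180-45746202, minus strand): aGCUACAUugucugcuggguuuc
miR-222-3p (chrX:45747036-45747056, minus strand): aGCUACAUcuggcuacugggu
miR-23b-3p (chr9:95085265-95085287, plus strand): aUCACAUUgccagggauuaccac
miR-27b-3p (chr9:95085505-95085525, plus strand): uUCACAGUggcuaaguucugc
The first pair share GCUACAU, and the second pair carry UCACAUU and UCACAGU, which differ from each other. MIR221 read 10.20, 10.46 and 10.17 in JQ1-treated MDA-MB-231 and 5.36, 4.88 and 5.81 in JQ1-treated HCC70 (-4.93 ± 0.19, against -4.78 ± 0.19 in vehicle). MIR222 differed by -3.76 ± 0.23 and -3.22 ± 0.23. MIR23B read 10.05, 10.16 and 9.99 with JQ1 and 8.82, 8.78 and 8.73 with vehicle in MDA-MB-231, and the JQ1 rise there took its difference from -0.75 ± 0.095 to -2.16 ± 0.095. MIR27B did the same (-0.88 ± 0.13 to -2.62 ± 0.13). MIR21 persisted at -2.49 ± 0.22, and MIR205, an epithelial microRNA gene, narrowed from 2.99 ± 0.16 to 2.03 ± 0.16. Over 1005 microRNA genes, a group chosen after values had been seen, 201 (20.0%) were called under JQ1, 98 higher in HCC70 and 103 higher in MDA-MB-231. That is below the 46.3% of all genes, and the group is dimmer, with a median level of 4.36 against 6.25.

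Growth factor receptors were split between the lines. EGFR was not called between the JQ1-treated lines (0.00 ± 0.075, 95% interval -0.17 to 0.16). ERBB3 was higher in HCC70 (2.35 ± 0.12, against 3.02 ± 0.12 in vehicle), and FGFR1 (-1.53 ± 0.13), IGF1R (-1.28 ± 0.12) and INSR, the insulin receptor (-2.83 ± 0.10), were higher in MDA-MB-231. MET, the hepatocyte growth factor receptor, widened toward HCC70, from 0.61 ± 0.083 to 1.59 ± 0.083, as it rose by 0.74 ± 0.083 there. The ligand EREG (epiregulin) narrowed: MDA-MB-231 read 9.47, 9.29 and 9.12 in vehicle and 6.88, 6.81 and 6.19 with JQ1, HCC70 read 5.45, 5.47 and 5.44 with JQ1, and the difference went from -3.49 ± 0.16 to -1.17 ± 0.16. HBEGF persisted at -1.87 ± 0.10. Of 21 receptors and ligands measured, 10 were higher in MDA-MB-231 and 5 in HCC70 under JQ1.

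Several wide differences narrowed as the gene fell in HCC70. CP, ceruloplasmin, read 10, 10.05 and 9.95 in vehicle-treated HCC70, 5.31, 5.78 and 5.46 with JQ1, and 4.36, 4.62 and 4.88 in JQ1-treated MDA-MB-231. The JQ1 groups still did not overlap, and the difference narrowed from 5.84 ± 0.16 to 0.90 ± 0.16 (change -4.94 ± 0.22, adjusted p = 1.5e-07). CEACAM6, a carcinoembryonic adhesion molecule, read 10.97, 10.99 and 10.94 in vehicle-treated HCC70 against 7.83, 7.96 and 6.62 with JQ1, the third JQ1 array lowest, and its difference went from 7.04 ± 0.26 to 3.55 ± 0.26. GLYATL2, a glycine acyltransferase, went from 8.27 ± 0.18 to 4.36 ± 0.18 and RARRES1, a retinoid-responsive gene, from 7.85 ± 0.18 to 4.49 ± 0.18. GSDMC, a gasdermin, went from 4.18 ± 0.10 to 0.98 ± 0.10. For all of these MDA-MB-231 lay under the lower quartile with JQ1, so the differences are lower bounds. Of the 272 narrowed genes that were higher in HCC70, 212 had fallen in HCC70 and 73 had risen in MDA-MB-231. Of the 280 higher in MDA-MB-231, 202 had fallen there and 85 had risen in HCC70. The class is defined by movement of this kind, and the counts of falls and rises depend on the scaling.

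On the MDA-MB-231 side LAPTM5, a lysosomal protein of blood cells, narrowed most. It read 9.56, 9.36 and 9.13 in vehicle, 5.80, 6.03 and 5.70 with JQ1, and 5.64, 5.36 and 5.26 in JQ1-treated HCC70. The difference went from -4.16 ± 0.15 to -0.43 ± 0.15, and the remainder was not called when any of 3 arrays was left out (MDA-MB-231 JQ1 2, HCC70 JQ1 2 and HCC70 JQ1 3; -0.34, -0.40 and -0.35). CEMIP, a hyaluronan-degrading factor, kept a larger remainder (-5.60 ± 0.14 to -3.16 ± 0.14), and CLIC6, TOX, MILR1 and TLR8-AS1 ended at -1.21, -0.56, -0.68 and -0.45. The JQ1 arrays of TOX overlapped, and the calls of TOX and TLR8-AS1 were each lost under 4 of the alternatives. LAPTM5 and MILR1 are genes of blood cells, and the part of any other cell type in these values was not tested.

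For several differences that were lost, the higher line likewise fell. IFI44L, an interferon-induced gene, read 7.98, 7.44 and 7.81 in vehicle-treated HCC70 and 3.52, 3.57 and 3.51 with JQ1, close to 3.23, 3.33 and 3.44 in JQ1-treated MDA-MB-231. Its difference went from 4.14 ± 0.13 to 0.20 ± 0.13 (adjusted p = 0.24). Both JQ1 groups lie under the lower quartile, where a remaining difference cannot be read. ATP13A5, CD180 (a Toll-like receptor homologue), IL33 (an alarmin cytokine), GBP4 and CD38 were lost likewise, from differences of 3.47, 3.61, 2.48, 2.43 and 2.33 in vehicle to between -0.08 and 0.24 under JQ1. For ATP13A5, CD180, GBP4 and CD38 both JQ1 groups also ended under the lower quartile. The JQ1 arrays of CD180 did not overlap, at 4.43, 4.38 and 4.49 in HCC70 and 4.26, 4.23 and 4.08 in MDA-MB-231. IL7R, the interleukin-7 receptor, led the losses of MDA-MB-231: it read 6.18, 6.90 and 6.70 there in vehicle, 3.52, 3.59 and 3.79 with JQ1 and 3.42, 3.56 and 3.42 in JQ1-treated HCC70. CRLF2, a cytokine receptor, HAS2, a hyaluronan synthase, LIF, a cytokine of the interleukin-6 family, CDK15 and CCDC190 were lost from vehicle differences of -2.44, -2.68, -2.18, -2.86 and -2.60. For IL7R, CRLF2 and CDK15 both JQ1 groups again lay under the lower quartile. CCDC190 was still called under JQ1 with the replicate block (-0.31) and without MDA-MB-231 JQ1 replicate 1 (-0.44). Of 204 lost genes higher in HCC70, 136 had fallen in HCC70, and of 262 higher in MDA-MB-231, 184 had fallen there.

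Secreted defence proteins, many of them made by mucosal epithelia, split between these courses. Of 14 measured, 9 were higher in JQ1-treated HCC70 and 1 lower (median 1.26, against 10, 1 and 1.57 in vehicle). LCN2, lipocalin 2, persisted at 2.68 ± 0.17. DMBT1, a mucosal scavenger protein, persisted at 1.99 ± 0.13 although it fell steeply in both lines, from 9.96 ± 0.087 to 6.58 ± 0.043 in HCC70 and from 7.58 ± 0.12 to 4.59 ± 0.32 in MDA-MB-231. MDA-MB-231 ended under the lower quartile, so 1.99 is a lower bound and an unchanged gap cannot be read. SAA1, an acute-phase protein, was the gene higher in MDA-MB-231 and narrowed to -0.42 ± 0.085.

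Of 22 inflammatory cytokines, chemokines and receptors, 5 were higher in HCC70 and 2 in MDA-MB-231 under JQ1, against 7 and 7 in vehicle, and without the arrays numbered 3 that stood apart from their groups 3 were higher in HCC70. The line difference changed for 8, in 5 toward HCC70 and in 3 toward MDA-MB-231. CXCL16 persisted at 4.73 ± 0.16. CCL28, a mucosal chemokine, widened from 1.99 ± 0.09 to 3.59 ± 0.09 as MDA-MB-231 fell from 6.6 ± 0.13 to 4.50 ± 0.038. That level is under the lower quartile, so 3.59 is a lower bound. ICAM1, a leukocyte adhesion molecule, narrowed from -2.18 ± 0.13 to -0.35 ± 0.13, a remainder whose arrays overlapped and that was not called in a fit of the JQ1 arrays alone or when any of 5 arrays was left out (-0.26 to -0.36).

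All 33 mitotic genes measured moved toward HCC70. In vehicle, 13 of 33 measured were higher in HCC70 and 8 in MDA-MB-231, with a median difference of 0.136. Under JQ1, 32 were higher in HCC70 and 1 in MDA-MB-231, with a median of 1.53. The line difference moved toward HCC70 for all 33 (median change 1.5), where 9.02% of all genes did. All 33 fell with JQ1 in MDA-MB-231 (median effect -2.07) and 29 fell in HCC70 (median effect -0.51), so both lines moved down and MDA-MB-231 moved further. By class, 13 widened, 12 appeared, 7 reversed and 1 narrowed.

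CDCA8 (borealin, of the chromosomal passenger complex) shows the pattern that appeared. It read 9.29, 9.37 and 9.30 in vehicle-treated HCC70 against 9.39, 9.4 and 9.29 in vehicle-treated MDA-MB-231, which overlapped. Under JQ1 it read 9.14, 9.0 and 8.96 in HCC70 against 7.11, 7.07 and 6.58 in MDA-MB-231, well apart, with a difference of 2.12 ± 0.13 (adjusted p = 1.6e-08). KIF20A, a cytokinesis kinesin, NDC80, a kinetochore protein, and IQGAP3, a scaffold of dividing cells, did the same, to 2.11 ± 0.11, 1.86 ± 0.12 and 2.41 ± 0.085. CDC20, the activator of the anaphase-promoting complex, widened from 0.60 ± 0.086 to 2.64 ± 0.086. MKI67, the proliferation antigen, widened from 1.0 ± 0.089 to 2.55 ± 0.089, PLK1 from 0.88 ± 0.099 to 2.40 ± 0.099, and HMMR from 1.46 ± 0.10 to 2.86 ± 0.10. TOP2A, topoisomerase II alpha, reversed: it was higher in MDA-MB-231 in vehicle (-0.73 ± 0.08) and higher in HCC70 under JQ1 (0.90 ± 0.08). AURKA (-0.78 ± 0.095 to 0.51 ± 0.095), AURKB (-0.31 ± 0.086 to 1.23 ± 0.086), BUB1 (-0.79 ± 0.077 to 0.61 ± 0.077) and CCNB1 (-0.63 ± 0.098 to 0.80 ± 0.098) reversed with it. PBK, a mitotic kinase, was the single member still higher in MDA-MB-231 under JQ1 (-0.47 ± 0.17), its JQ1 arrays overlapped, and the call was lost when any of 6 arrays was left out (-0.28 to -0.49), after quantile normalization (-0.48) and in a fit of the JQ1 arrays alone (-0.47).

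DNA replication genes moved with them. Of 18 measured, 17 were higher in HCC70 and 0 lower under JQ1 (median 1.61), against 12 and 4 in vehicle (median 0.621), and the difference changed toward HCC70 for 17. MCM10, an origin-firing factor, read 9.44, 9.4 and 9.28 in JQ1-treated HCC70 and 6.52, 6.29 and 6.44 in JQ1-treated MDA-MB-231, a difference of 2.95 ± 0.11 against 1.40 ± 0.11 in vehicle. RRM2, the ribonucleotide reductase subunit, widened from 0.69 ± 0.091 to 2.23 ± 0.091, GINS1 from 0.72 ± 0.096 to 1.97 ± 0.096 and MCM2 from 0.88 ± 0.096 to 1.76 ± 0.096. MCM6, of the replicative helicase, appeared (0.11 ± 0.10 to 1.59 ± 0.10). All 18 fell in MDA-MB-231 and 8 fell in HCC70. Growth rate and cell number were not measured on these arrays.

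**Figure D4:**
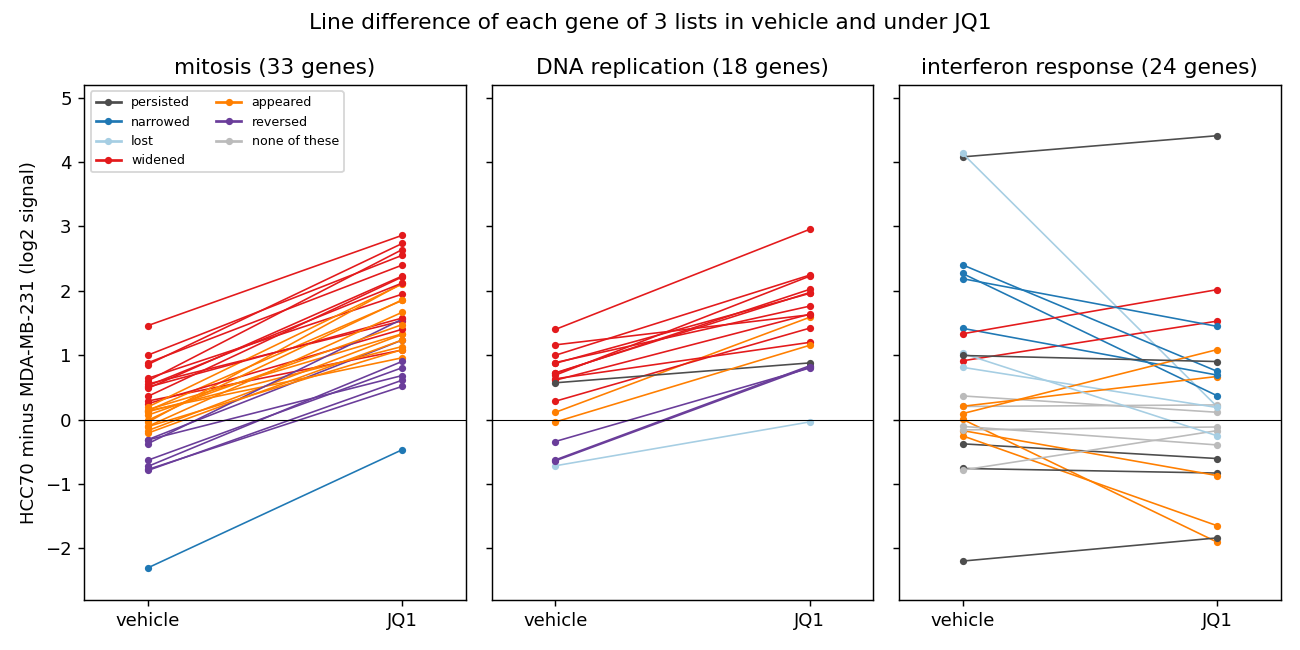
Each line joins the line difference (HCC70 minus MDA-MB-231, log2 signal) of 1 gene in vehicle and under JQ1, coloured by class, for 33 mitotic, 18 DNA replication and 24 interferon response genes. Mitotic and replication genes rise together and, under JQ1, lie above 0 except PBK and RRM1, while the interferon genes cross in both directions.

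Promoter stretches of CDCA8, CDC20 and KIF20A are shown because mitotic promoters are known for the CHR element, TTTGAA, and for CCAAT boxes, and these genes carry the changed difference. Each is bases -180 to -1 before the first listed start (RefSeq, GRCh38.p14, plus strand), with TTTGAA and CCAAT on either strand in capitals. In CDCA8 the TTTGAA shares its last base with a reversed CCAAT.
CDCA8 (chr1:37692336-37692515): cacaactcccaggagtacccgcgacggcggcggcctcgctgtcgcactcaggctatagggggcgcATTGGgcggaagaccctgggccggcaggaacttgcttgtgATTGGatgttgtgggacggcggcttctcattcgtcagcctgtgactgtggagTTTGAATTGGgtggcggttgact
CDC20 (chr1:43358801-43358980): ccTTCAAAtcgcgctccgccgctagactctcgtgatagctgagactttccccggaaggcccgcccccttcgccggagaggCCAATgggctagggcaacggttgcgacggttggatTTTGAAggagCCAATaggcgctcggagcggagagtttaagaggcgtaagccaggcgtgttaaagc
KIF20A (chr5:138178932-138179111): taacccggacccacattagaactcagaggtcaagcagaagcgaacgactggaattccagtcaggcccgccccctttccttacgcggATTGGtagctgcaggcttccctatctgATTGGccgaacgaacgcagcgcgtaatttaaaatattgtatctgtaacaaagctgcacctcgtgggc
TTTGAA was present in the 250 bases before the start for 16 of 29 mitotic genes with a listed promoter (55.2%), against 10.4% of 10749 genes tested. CCAAT was present for 24 of 29 (82.8%), against 34.3%. Replication genes held TTTGAA in 1 of 16 and CCAAT in 11 of 16. A link between these letters and the change in line difference was not tested. KIF20A holds no TTTGAA in the stretch printed, which says only that these letters are not there.

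More sterol and fatty acid synthesis genes were higher in HCC70 under JQ1 than in vehicle. Of 19 genes measured, 15 were higher in HCC70 and 2 lower under JQ1 (median 0.711), against 8 and 5 in vehicle (median 0.189). INSIG1, which holds the sterol sensor in the endoplasmic reticulum, read 9.96, 10.04 and 9.95 in HCC70 against 10.12, 10.05 and 9.95 in MDA-MB-231 in vehicle, which overlapped. Under JQ1 it read 10.64, 10.63 and 10.49 in HCC70 and 8.51, 8.66 and 8.68 in MDA-MB-231, a difference of 1.97 ± 0.086 that appeared as HCC70 rose and MDA-MB-231 fell. FASN, fatty acid synthase, appeared at 1.31 ± 0.087, and SCD, stearoyl-CoA desaturase, reversed from -0.47 ± 0.079 to 0.66 ± 0.079. SQLE, squalene epoxidase, persisted at 3.01 ± 0.083 (3.03 ± 0.083 in vehicle). IDI1 widened to 1.78 ± 0.086, a change not called without every array numbered 3 (0.52). ACSL4 (-1.22 ± 0.082) and ELOVL6 (-0.89 ± 0.089) were the genes higher in MDA-MB-231, and both had narrowed, though for ACSL4 the change was not called without every array numbered 3 (0.46).

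The interferon response moved in both directions. Of 24 genes measured, 10 were higher in HCC70 and 7 in MDA-MB-231 under JQ1, against 12 and 4 in vehicle, and the line difference changed for 14, in 10 of them toward MDA-MB-231. With JQ1, 17 fell in HCC70 and 16 in MDA-MB-231. IFI44, a relative of IFI44L, persisted: it read 8.68, 8.44 and 8.08 in JQ1-treated HCC70 and 4.55, 4.10 and 3.32 in JQ1-treated MDA-MB-231 (at least 4.41). IFITM1, an antiviral membrane protein, narrowed from 2.27 ± 0.12 to 0.37 ± 0.12, where the arrays overlapped, and RSAD2 (viperin) from 2.40 ± 0.21 to 0.75 ± 0.21, a call lost without the arrays numbered 3 that stood apart (0.50). ISG15 (0.91 ± 0.11 to 1.53 ± 0.11) and the RNA sensor IFIH1 (1.33 ± 0.14 to 2.02 ± 0.14) widened toward HCC70. The widening of ISG15 was not called without the arrays numbered 3 that stood apart (0.56), and that of IFIH1 was not called when any of 8 arrays was left out (0.56 to 0.71). IFITM2 stayed higher in MDA-MB-231 (-1.84 ± 0.11).

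IFIT1, an RNA-binding antiviral protein, fell in HCC70 as IFI44L did, from a level that the lines shared in vehicle. Vehicle-treated HCC70 read 6.64, 6.80 and 6.30 and MDA-MB-231 6.74, 6.62 and 6.38, which overlapped. JQ1-treated HCC70 read 4.66, 4.43 and 4.26, and JQ1-treated MDA-MB-231 6.27, 6.52 and 6.26, wholly above it. The difference of -1.9 ± 0.15 appeared as the gene fell by 2.13 ± 0.15 in HCC70, and since HCC70 ends under the lower quartile it is a lower bound in size. IFIT3 appeared likewise at -1.65 ± 0.19. Of 22 antigen presentation genes listed, only 4 were measured, and the HLA genes, TAP1 and TAP2 were not analysed here. All 4 persisted: B2M (0.74 ± 0.077) and ERAP2 (1.80 ± 0.13) stayed higher in HCC70 and TAPBP (-0.54 ± 0.085) and ERAP1 (-0.82 ± 0.099) higher in MDA-MB-231. With JQ1, 3 of the 4 fell in each line (median effects -0.53 in HCC70 and -0.627 in MDA-MB-231).

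The promoters of IFI44L, IFIT1 and IFIT3 are shown because the interferon-stimulated response element is the known switch of this list, and these genes lost a line difference or came to have one. Stretches are bases -180 to -1 (RefSeq, GRCh38.p14, plus strand), with TTTC, any 2 bases and TTTC again in capitals, on either strand.
IFI44L (chr1:78620268-78620447): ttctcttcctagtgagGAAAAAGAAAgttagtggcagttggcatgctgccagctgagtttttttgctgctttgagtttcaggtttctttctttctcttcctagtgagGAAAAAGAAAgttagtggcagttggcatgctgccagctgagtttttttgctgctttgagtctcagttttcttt
IFIT1 (chr10:89392443-89392622): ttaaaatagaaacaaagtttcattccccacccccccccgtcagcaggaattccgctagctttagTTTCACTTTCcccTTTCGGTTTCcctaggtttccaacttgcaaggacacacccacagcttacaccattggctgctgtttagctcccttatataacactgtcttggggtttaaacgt
IFIT3 (chr10:89327817-89327996): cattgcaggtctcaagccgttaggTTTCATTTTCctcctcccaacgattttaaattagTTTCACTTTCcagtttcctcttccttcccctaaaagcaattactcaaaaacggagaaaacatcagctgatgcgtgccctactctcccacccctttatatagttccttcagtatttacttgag
The element was present in the 250 bases before the start for 12 of 18 interferon genes with a listed promoter (66.7%), against 2.57% of 10749 genes tested. All 3 genes shown hold it at 2 places. They were picked for a changed line difference, so the course they share was fixed by that choice. Over the measured list the difference changed toward MDA-MB-231 for 10 genes and toward HCC70 for 4. A link between the element and the direction of change was not tested.

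AP-1 and immediate early genes moved mostly toward HCC70. Of 22 measured, 7 were higher in HCC70 and 10 in MDA-MB-231 under JQ1, against 2 and 11 in vehicle, and the difference changed toward HCC70 for 12 and toward MDA-MB-231 for 1. FOSL1 (FRA-1), the AP-1 subunit known for invasive cells, read 10.62, 10.51 and 10.50 in vehicle-treated MDA-MB-231 and 9.17, 9.02 and 9.03 with JQ1. HCC70 stayed at 5.77 ± 0.31 and 5.89 ± 0.24, so the difference narrowed from -4.78 ± 0.15 to -3.18 ± 0.15. JUN reversed from -0.28 ± 0.083 to 0.48 ± 0.083 as it rose in HCC70, JUNB widened to 1.92 ± 0.097, and ATF3, a stress-induced factor, appeared at 1.08 ± 0.13. The changes of JUNB (0.52) and ATF3 (0.86) were not called without every array numbered 3. FOSL2 persisted at -1.49 ± 0.099. The MAP kinase phosphatases parted: DUSP6 stayed higher in MDA-MB-231 (-2.91 ± 0.18) while DUSP5 appeared on the HCC70 side (1.18 ± 0.13). The narrowing of DUSP6 (1.06 ± 0.25) was not called with array weights (0.73).

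YAP and TEAD targets, which report on cell stretch and the Hippo pathway, remained mainly genes of MDA-MB-231. Of 11 measured, 7 were higher there and 3 in HCC70 under JQ1, against 6 and 2 in vehicle. ANKRD1 read 11.16, 11.24 and 11.23 in MDA-MB-231 and 5.22, 5.25 and 5.0 in HCC70 under JQ1. The difference was -6.05 ± 0.092, and -5.93 ± 0.092 in vehicle, although the gene rose in both lines. Vehicle-treated HCC70 (4.66) lay under the lower quartile, so -5.93 is a lower bound in size and an unchanged gap cannot be read. AJUBA persisted (-2.76 ± 0.10), CRIM1 narrowed (-1.80 ± 0.079 to -0.92 ± 0.079), and AMOTL1 appeared on the HCC70 side (0.71 ± 0.076). AMOT and IGFBP3, higher in HCC70, were classed as narrowed, to 3.63 ± 0.16 and 2.72 ± 0.18. For AMOT, MDA-MB-231 lay under the lower quartile with vehicle and with JQ1 (3.96 ± 0.34 and 4.67 ± 0.16). The JQ1 effect in HCC70 was not called (-0.27 ± 0.16). The AMOT difference is thus a lower bound in each treatment, and its narrowing cannot be read.

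Among BET proteins and the P-TEFb machinery, 4 of 12 were higher in HCC70 and 3 in MDA-MB-231 under JQ1, and the line difference changed for 1, MYC. BRD2 rose in both lines, by 1.22 ± 0.089 in HCC70 and 0.86 ± 0.089 in MDA-MB-231, and ended level (difference 0.00 ± 0.089). HEXIM1, the P-TEFb inhibitor that is a common readout of BET inhibition, also rose in both, by 1.11 ± 0.13 and 0.59 ± 0.13, and stayed higher in MDA-MB-231 (-0.75 ± 0.13). MYC fell in both, from 7.48 ± 0.15 to 6.57 ± 0.14 in HCC70 and from 8.74 ± 0.016 to 8.33 ± 0.074 in MDA-MB-231. Its difference went from -1.26 ± 0.10 to -1.76 ± 0.10, a change (adjusted p = 0.03) that was not called when any of 6 arrays was left out (-0.42 to -0.51).

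Some differences were seen only after JQ1 and from a rise in MDA-MB-231. ATOH8, a basic helix-loop-helix factor, read 5.69, 5.74 and 5.52 in vehicle-treated MDA-MB-231 and 8.53, 8.72 and 8.13 with JQ1, while HCC70 stayed at 5.41 ± 0.15 and 5.44 ± 0.14. The difference of -3.01 ± 0.14 appeared (adjusted p = 2.0e-09, change -2.77 ± 0.20). EFR3B, a plasma membrane scaffold, appeared at -2.88 ± 0.11. CALCR, the calcitonin receptor, widened the most on this side, from -1.15 ± 0.15 to -3.74 ± 0.15, with HCC70 under the lower quartile in both treatments. ALDH2 (-1.91 ± 0.12) and S1PR1, a lipid receptor (-1.84 ± 0.17), appeared as HCC70 fell and MDA-MB-231 rose. Of 169 genes that appeared higher in MDA-MB-231, 108 had risen there and 70 had fallen in HCC70. Of 278 that appeared higher in HCC70, 193 had fallen in MDA-MB-231 and 87 had risen in HCC70.

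Reversals were few, and for 162 of the 166 genes the arrays of the lines lay apart in both treatments. SUSD2, a sushi domain membrane protein, was higher in HCC70 in vehicle (9.46, 9.70 and 9.71 against 7.74, 7.62 and 7.41) and higher in MDA-MB-231 under JQ1 (9.37, 9.38 and 9.28 against 8.04, 8.37 and 8.41). Its difference went from 2.03 ± 0.12 to -1.07 ± 0.12. UCA1, a long non-coding RNA, rose in both lines and more in MDA-MB-231, so that 2.05 ± 0.076 became -0.38 ± 0.076. CD274, which encodes the immune checkpoint ligand PD-L1, went the other way: MDA-MB-231 read 7.91, 7.83 and 7.72 in vehicle and 6.06, 5.76 and 5.86 with JQ1, HCC70 read 6.11, 6.23 and 6.29 and 6.88, 6.65 and 6.56, and -1.61 ± 0.11 became 0.81 ± 0.11. SPAG5, KIF23 and DIAPH3, a spindle protein, a kinesin and a formin, reversed in the same direction, to 1.49 ± 0.10, 1.56 ± 0.098 and 1.47 ± 0.086. Of 116 genes that went from MDA-MB-231 to HCC70, 99 had fallen in MDA-MB-231. At a size of at least 1 log2 unit in every call, 2 genes reversed.

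**Figure D5:**
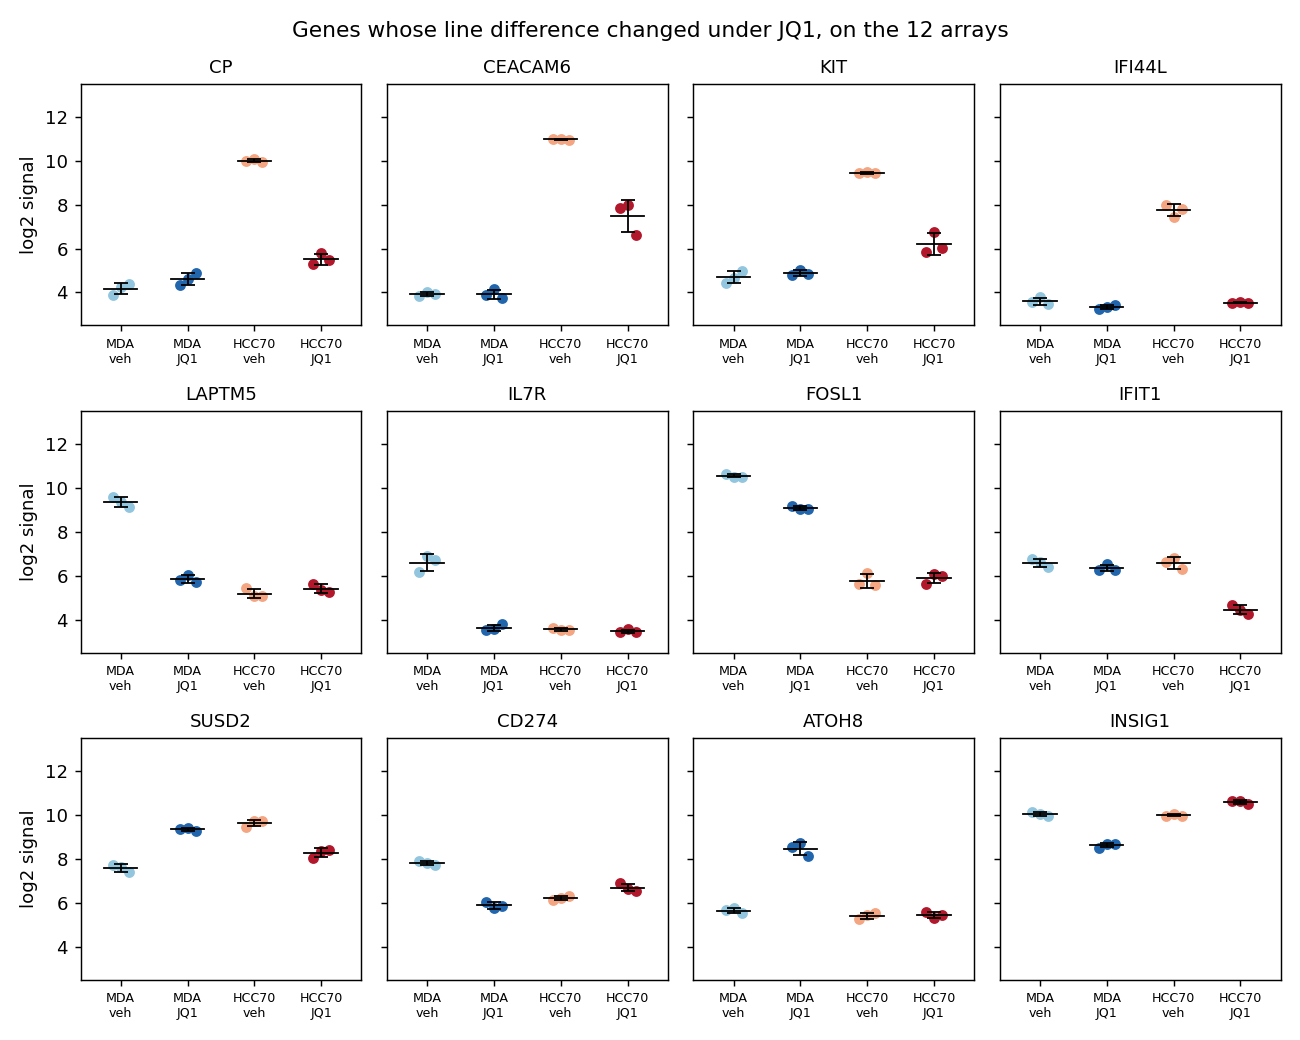
Points are the log2 signals of the 3 arrays of each group, with bars at the mean and SD, for 12 genes whose line difference changed under JQ1. CP, CEACAM6, KIT and IFI44L drop in HCC70, LAPTM5 and IL7R drop in MDA-MB-231, IFIT1 drops in HCC70 from a level the lines shared, and SUSD2 and CD274 change which line is higher.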

How the data were processed

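Expression was measured on 12 arrays, 3 for each line and treatment. The deposited values are log2 signals of transcript clusters; the submitters' processing notes list RMA, oligo and limma, with neither their roles nor versions. The genome build behind the annotation: not given in the sources used here. From these deposited log2 values, a model with 1 mean per group was fitted over the 12 arrays (limma 3.58.1, R 4.3.3, lmFit then eBayes, neither trend nor robust). Contrasts were HCC70 minus MDA-MB-231 under JQ1, the same in vehicle, their difference (the change), and JQ1 minus vehicle in each line. Tests were two-sided, with Benjamini-Hochberg adjustment over 14884 genes and calls under 0.05. Of the clusters, 37519 had no symbol, and for 779 genes with several clusters the brightest was kept. There was no filter on dim genes. The precision is limited by 3 arrays per group.

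Named genes include the 10 largest JQ1 differences on each side and the 6 largest changes on each side of every class but persisted. They also include, for each list, up to 3 members of smallest p on either side and up to 3 for the change. A further 24 were fixed readouts (20 measured). Other genes, such as AURKA, FGFR1, MIR222 and MIR21, were named by choice outside these rules. The comparison, the members and the 23 gene lists (integrins had 0 genes measured) were chosen with earlier results of these data known. Sets were described by counts, with no set test. The fit was tested on simulated data. Alternatives were the replicate block, trend with robust moderation, only genes brighter than the median, averaging the clusters of a gene, all clusters, quantile normalization, median centring, array weights, the JQ1 arrays alone, a log2 size of at least 1, and leaving out arrays.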

Additional observations from a re-analysis of the deposited data

Results flagged for a closer look

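The line difference changed between vehicle and JQ1 for 2228 genes, by the test of the change itself. The changes (JQ1 line difference minus vehicle line difference, log2) with the largest size among differences that reversed were -3.10 for SUSD2, -2.42 for UCA1, -2.02 for GPR137C, -1.97 for DBP, a clock output factor, -1.89 for GGT3P, a pseudogene whose signal can come from related copies, and -1.87 for SAMD9L, an interferon-induced gene. Toward HCC70 they were 2.52 for MIR3143, 2.42 for CD274, 2.06 for SPAG5, 1.94 for FBXO32, a muscle ubiquitin ligase, 1.93 for KIF23 and 1.87 for DIAPH3.

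Clusters without a gene symbol entered no comparison above. Of 37519 of them, 9070 differed between the JQ1-treated lines when all clusters were fitted together, 4073 higher in HCC70 and 4997 higher in MDA-MB-231, and 9055 differed in vehicle. With groups of 3 arrays, no formal test for outlying arrays was run. Array weights and fits with arrays left out are given below.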

How the results depend on the processing

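Leaving out 1 array at a time gave 6362 to 6996 genes differing between the JQ1-treated lines, 6383 to 7100 in vehicle and 1748 to 2376 changed, with 2506 to 3359 JQ1 effects in HCC70 and 3355 to 4236 in MDA-MB-231. Over the same fits 4036 to 4237 differences persisted, 401 to 574 narrowed, 348 to 535 were lost, 127 to 185 reversed, 432 to 562 widened and 359 to 507 appeared. Fitting all transcript clusters gave 15759 line differences under JQ1, 15776 in vehicle, 4984 JQ1 effects in HCC70, 7496 in MDA-MB-231, and 9773 persisted, 773 lost and 739 appeared, since more features were tested. Asking for a log2 size of at least 1 left 2285 under JQ1, 2205 in vehicle, 607 changed, 380 and 648 JQ1 effects in HCC70 and MDA-MB-231, and 1398 persisted, 97 narrowed, 178 lost, 2 reversed, 67 widened and 180 appeared. Array weights gave 5110 JQ1 effects in HCC70, where replicate 2 with JQ1 had a weight of 4.69, and the cause was not tested. The other counts over all genes stayed within 1.5 times, and 0 called values reversed. Without the arrays numbered 3 of vehicle-treated MDA-MB-231 (weight 0.47) and of JQ1-treated MDA-MB-231 (0.58) and HCC70 (0.56), which stood apart, 6672 genes differed under JQ1.

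The replicate number as a block gave 7128 line differences under JQ1 and 2375 changes. Same-numbered arrays of the lines correlated in their deviations at 0.135, 0.05 and 0.291 under JQ1 and at -0.035, 0.065 and 0.002 in vehicle, so the numbers were not taken as pairs between the lines, and not every array correlated best with its own number. JQ1 and vehicle arrays of the same number correlated at -0.059, 0.015 and 0.07 in HCC70 but at 0.155, 0.121 and 0.362 in MDA-MB-231, each over 0.1 in that line alone. The block gave 4376 JQ1 effects there against 4139 and moved no count over all genes by 1.5 times. List counts moved by over 1.5 times chiefly on genes above the median level, where fewer members were tested: 5 secreted defence genes were higher and 1 changed, and 4 interferon genes were lower and 9 changed. Changed breast lineage genes numbered 2 or 3, not 5, when any of 8 arrays was left out. Array weights gave 4 changed BET and P-TEFb genes, and variance trend with robust moderation 5 changed tight junction genes. Besides those noted, the changes of AASS, ACSL4, ATF3, CLDN4, DSC3, ERBB3, IDI1, IGFBP7, ISG15, JUNB, KLF5, OASL, PKP1, PROM1, ST14 and SYCP2 were not called under at least 1 alternative, and that of IER3 was not called on the mean of its clusters (0.33). For dim genes, the floor of the arrays limits how small a level or how large a gap can be read.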
